A study of Mus musculus with 32 samples.

Results

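The defensin genes and the small proline-rich (Sprr) and late cornified envelope (Lce) genes of the mouse form tandem arrays of short genes that act at body surfaces. Their 5-methylcytosine (5mC) signal was described here in 4 internal organs. The genes were taken by name: every row of the deposited table whose symbol begins with Defa, Defb, Sprr or Lce followed by a digit, with the 5 rows named as pseudogenes left out. This gave 105 of the 27179 genes in the table, made up of 28 Defa (alpha-defensin) genes, 42 Defb (beta-defensin) genes, 15 Sprr genes and 20 Lce genes. The rule uses names alone, but it was set with earlier results of these data known. The 5 pseudogene rows were counted below among the genes that lie near the members.

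MeDIP-seq was used, a method that sequences the single-stranded DNA fragments bound by a 5mC antibody. Brain, heart, kidney and liver of mice were either formalin-fixed and embedded in paraffin (FFPE) or flash-frozen. The labels list 32 samples in 16 groups of 2, of which 16 samples are 5mC precipitates and 16 are unselected DNA called Input. The deposited table has 8 columns, 1 for each organ and preservation, here called libraries: FFPE brain, heart, kidney and liver, and frozen brain, heart, kidney and liver. No antibody or replicate number appears in the names of the columns, which were read as 5mC since the table is labelled as MeDIP-seq. Whether a column holds 1 sample or both samples of its group is not known here. The labels do not state strain, genotype, sex or age, nor whether FFPE and frozen tissue came from the same mice. Preservation and source animal therefore cannot be told apart. Input was not analysed here, so methylation and gene copy number cannot be told apart either. Nothing in the labels ties the libraries to separate animals, so p values measure only the spread between libraries.

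Alpha-defensins are cationic antimicrobial peptides that mouse Paneth cells of the small intestine store in granules and release into the crypt lumen. Beta-defensins are related peptides that differ from them in how their cysteines are paired. Some beta-defensins are made by epithelia of the skin, airway and kidney, and many others by the epididymis. Sprr and Lce proteins are cross-linked by transglutaminases into the cornified envelope, the insoluble shell of a terminally differentiated keratinocyte, and their genes lie together in the epidermal differentiation complex. In mammals 5mC covers most CpG sites outside CpG islands.

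The genes lie in 6 clusters, given here with RefSeq coordinates on GRCm38.p6 (the mm10 assembly), found through each gene's Entrez ID, with a cluster split wherever neighbours lay over 1 Mb apart. All 15 Sprr and 20 Lce genes lie at chr3:92215835-93019061. All 28 Defa genes lie with 10 Defb genes at chr8:20892667-21948622. A more proximal cluster of chromosome 8, at chr8:18974914-19497775, holds 14 Defb genes. The remaining Defb genes lie at chr2:152459055-152623053 (11 genes), chr14:62977524-63048606 (5 genes) and chr1:18236402-18265138 (2 genes). The genes are short: the median annotated length was 973 bases for Defa, 1640 for Sprr, 1628 for Lce and 3215 for Defb genes, against 14492 bases for all 25275 genes of the table that could be placed. In all, 12 members overlap another annotated gene, among them Lce6a, which lies wholly within the long noncoding RNA gene Gm35639, and Defa29, Defa38, Defa39, Defa42 and Defa43, each of which overlaps a small nucleolar RNA gene by 92 bases. How reads on such overlaps were counted is not known here.

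The 250 bases upstream of the start of 11 genes are printed because the results below turn on these genes or on near-identical copies of them. They come from RefSeq on GRCm38.p6, run 5′ to 3′ on the strand of the gene, and show each CpG dinucleotide, the main site of 5mC, in capitals.
Defa21 (chr8:21025295-21025544, plus strand): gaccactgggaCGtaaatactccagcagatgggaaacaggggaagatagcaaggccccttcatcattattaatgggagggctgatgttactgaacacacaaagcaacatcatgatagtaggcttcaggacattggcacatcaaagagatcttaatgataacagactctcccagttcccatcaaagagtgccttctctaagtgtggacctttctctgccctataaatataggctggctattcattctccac
Defa20 (chr8:21509008-21509257, plus strand): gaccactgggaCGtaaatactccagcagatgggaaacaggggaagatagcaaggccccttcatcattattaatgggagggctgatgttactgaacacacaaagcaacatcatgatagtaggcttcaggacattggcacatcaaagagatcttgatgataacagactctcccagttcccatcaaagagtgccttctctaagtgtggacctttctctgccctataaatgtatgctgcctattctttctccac
Defa42 (chr8:21456518-21456767, minus strand): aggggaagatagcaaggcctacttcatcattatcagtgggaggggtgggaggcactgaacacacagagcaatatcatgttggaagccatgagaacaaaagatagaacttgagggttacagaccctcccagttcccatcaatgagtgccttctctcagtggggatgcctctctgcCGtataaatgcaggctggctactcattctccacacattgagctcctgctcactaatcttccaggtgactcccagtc
Defa38 (chr8:21096051-21096300, minus strand): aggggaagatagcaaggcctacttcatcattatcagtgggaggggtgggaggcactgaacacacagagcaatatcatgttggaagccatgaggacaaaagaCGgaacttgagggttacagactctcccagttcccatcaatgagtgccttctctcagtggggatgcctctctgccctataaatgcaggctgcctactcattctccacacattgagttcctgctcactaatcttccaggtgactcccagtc
Sprr2a1 (chr3:92215585-92215834, plus strand): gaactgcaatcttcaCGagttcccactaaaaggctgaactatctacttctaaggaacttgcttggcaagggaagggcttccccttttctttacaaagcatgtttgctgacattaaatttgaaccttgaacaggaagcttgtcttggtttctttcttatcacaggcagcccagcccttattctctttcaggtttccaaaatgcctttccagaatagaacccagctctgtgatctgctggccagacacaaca
Sprr2a3 (chr3:92285054-92285303, plus strand): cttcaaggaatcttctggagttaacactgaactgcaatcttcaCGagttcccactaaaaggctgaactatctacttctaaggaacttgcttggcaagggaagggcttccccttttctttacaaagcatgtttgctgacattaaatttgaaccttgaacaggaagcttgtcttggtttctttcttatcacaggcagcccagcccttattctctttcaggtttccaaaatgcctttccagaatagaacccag
Sprr2k (chr3:92432332-92432581, plus strand): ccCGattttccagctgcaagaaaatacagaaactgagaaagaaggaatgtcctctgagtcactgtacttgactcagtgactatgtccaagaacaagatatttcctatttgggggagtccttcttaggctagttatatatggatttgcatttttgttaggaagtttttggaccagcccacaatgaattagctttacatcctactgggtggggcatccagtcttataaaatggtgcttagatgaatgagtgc
Lce1h (chr3:92765066-92765315, minus strand): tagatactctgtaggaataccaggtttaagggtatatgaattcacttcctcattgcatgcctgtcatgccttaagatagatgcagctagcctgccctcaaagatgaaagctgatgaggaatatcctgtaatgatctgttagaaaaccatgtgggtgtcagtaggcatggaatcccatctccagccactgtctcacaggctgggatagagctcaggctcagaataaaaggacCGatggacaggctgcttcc
Lce1c (chr3:92678997-92679246, plus strand): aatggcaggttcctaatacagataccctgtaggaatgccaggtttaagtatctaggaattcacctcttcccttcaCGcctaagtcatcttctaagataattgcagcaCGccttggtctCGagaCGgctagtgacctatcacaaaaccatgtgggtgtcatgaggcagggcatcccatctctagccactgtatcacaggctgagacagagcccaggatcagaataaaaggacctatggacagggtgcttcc
Lce1m (chr3:93019062-93019311, minus strand): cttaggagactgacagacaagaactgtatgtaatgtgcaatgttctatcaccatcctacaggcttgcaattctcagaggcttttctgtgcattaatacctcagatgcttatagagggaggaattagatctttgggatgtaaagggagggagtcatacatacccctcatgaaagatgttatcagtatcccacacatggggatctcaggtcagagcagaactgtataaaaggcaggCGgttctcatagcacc
Defb41 (chr1:18265139-18265388, minus strand): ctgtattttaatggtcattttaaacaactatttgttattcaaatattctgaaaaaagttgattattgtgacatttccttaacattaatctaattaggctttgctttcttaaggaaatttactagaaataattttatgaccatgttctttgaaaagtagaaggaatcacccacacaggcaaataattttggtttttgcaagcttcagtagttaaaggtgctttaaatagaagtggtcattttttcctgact

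These windows show how alike some copies are and how few CpG sites they carry. The Defa21 window is identical to that of Defa22, the Defa20 window to that of Defa2, the Defa42 window to that of Defa43, and the Sprr2a1 window to that of Sprr2a2. Defa20 and Defa21 were 98.0% identical over the window and shared an unbroken run of 152 bases. Defa38 was 97.2% identical to Defa42. The Sprr2a3 window holds the first 222 bases of the Sprr2a1 window unbroken, starting at its base 29. Windows were given for 78 of the 105 members, and they held a median of 1 CpG, against 6 over the windows of 27025 genes. At most 2 CpG sites were found in 85.9% of the members' windows, against 29.6% of all windows. The letters TATAAA, searched on both strands, were found in 93.8% of Defa, 71.4% of Sprr, 21.1% of Lce and 17.2% of Defb windows, against 12.97% of all windows. Across the 78 members the CpG count of the window had a Spearman correlation of 0.100 with the mean signal per kb of gene, given as a description over genes that share the same 8 libraries.

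Signal is given as reads on a gene or as CPM, the reads divided by the authors' scaled library size in units of 1e+06 reads. The 8 libraries held 2164158 to 3699218 reads on genes, and the members took 540 to 1733 of them per library. Members were therefore thinly covered: 87 of the 105 had a mean of at most 5 CPM over the 8 libraries. Between 3 members (frozen brain) and 36 members (FFPE liver and frozen kidney) had no read in a library, and 3 reads, the most that a count of 0 allows, corresponded to 0.876 to 1.42 CPM. These limits, and the 95% intervals below, reflect counting error alone, because reads copied by PCR do not stand for separate molecules. Over all genes the SD of log2 signal ran from 2.07 in frozen brain to 2.91 in frozen kidney.

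Per kb of annotated gene length, the family medians lay around that of all placed genes, with Defb the lowest. The counted feature is not known here, so the length over which reads were counted may differ from this one. The median over members of the mean signal was 1.43 CPM per kb for Defa, 0.906 for Defb, 1.37 for Sprr and 1.16 for Lce genes, against 1.34 for all placed genes. Within families the range was wide. Lce1m reached 12.4 CPM per kb and Lce3d 0.170, Defb25 reached 10.5 and Defb50 0.0793, Defa21 reached 8.44 and Defa2 0.0532, and Sprr2a2 reached 6.27 and Sprr1b 0.665.

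**Figure D1:**
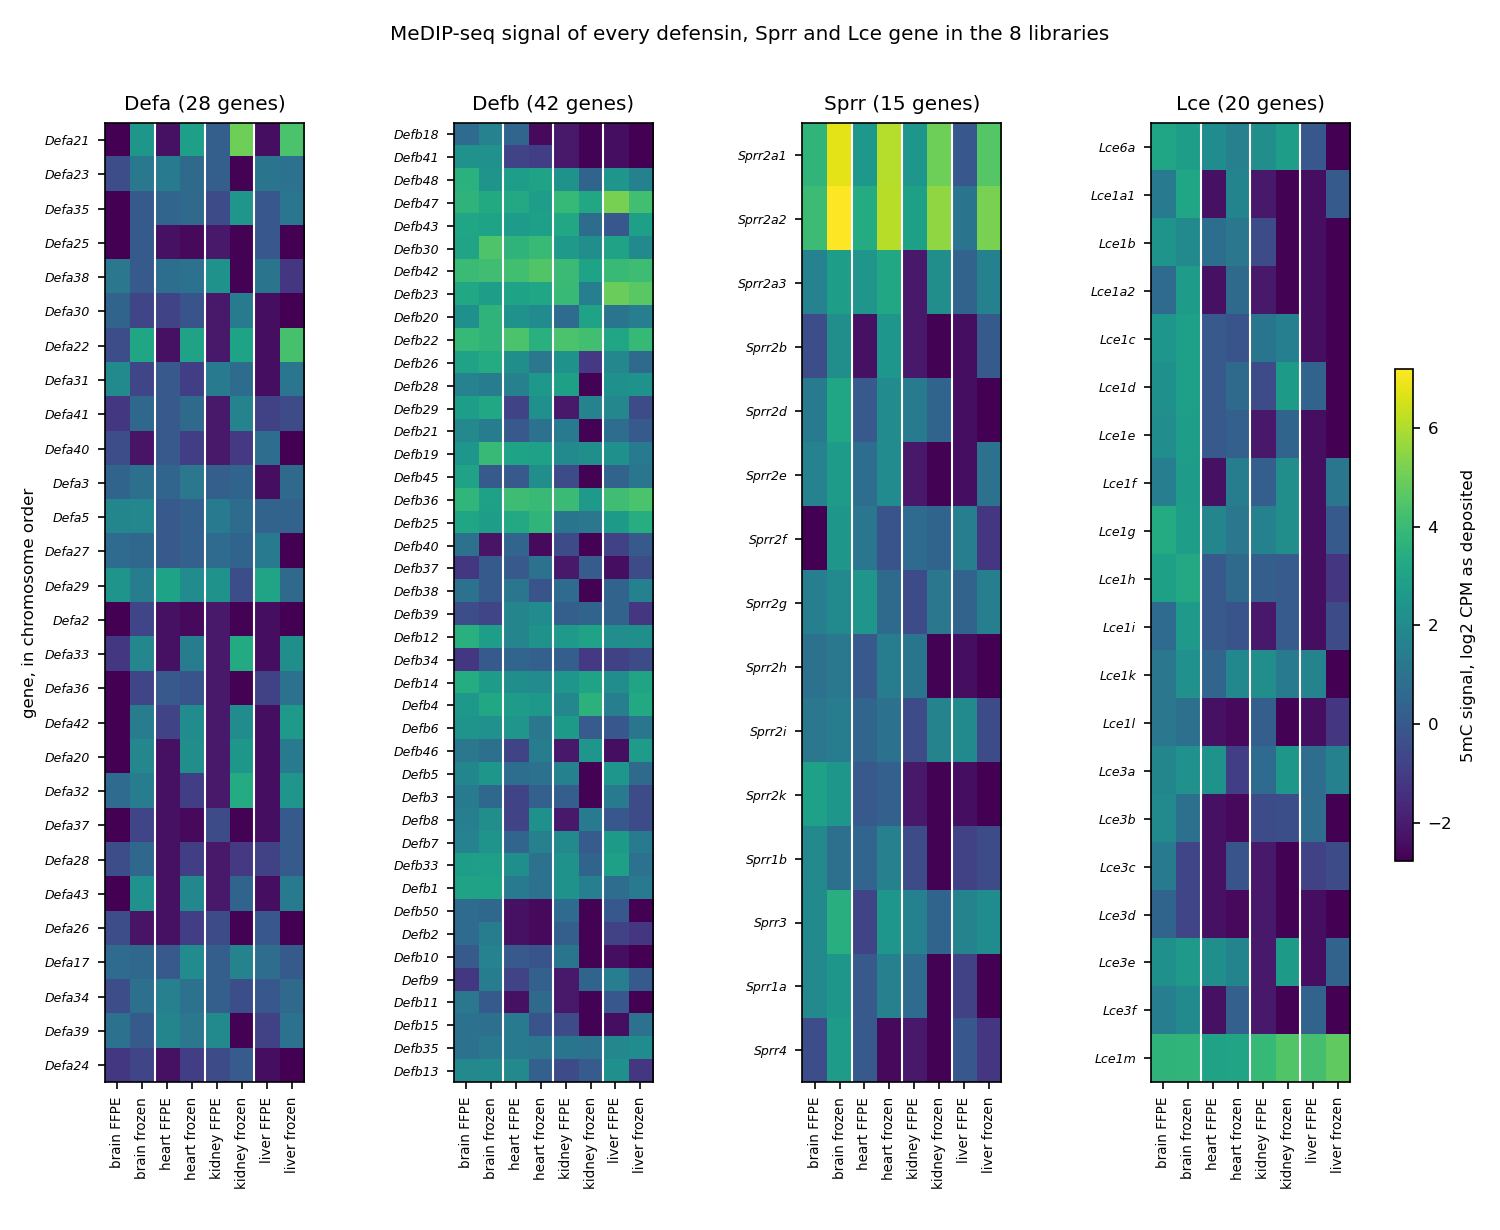
Deposited log2 CPM of all 105 members, 1 panel per family, with genes down each panel in chromosome order and the 8 libraries across (FFPE left of frozen within each organ; brighter is higher). Sprr2a1 and Sprr2a2 stand out in the 4 frozen libraries, and most Lce genes are brighter in both brain libraries than in both liver libraries, with Lce1m as the exception.

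The families differed in how their summed signal varied over the libraries. Summed over the 15 Sprr genes, signal was 64.5, 36.1, 23.6 and 15.9 CPM in FFPE brain, heart, kidney and liver, against 326, 177, 91.7 and 73.9 CPM in frozen brain, heart, kidney and liver. Every FFPE sum lay below every frozen sum. The 28 Defa genes summed to 27.5, 26.6, 26.0 and 22.7 CPM in FFPE brain, heart, kidney and liver, against 52.1, 54.1, 92.0 and 78.3 CPM in the same frozen organs. Here too the FFPE libraries lay below the frozen ones, and they were nearly level among themselves. The 20 Lce genes summed to 87.8, 30.6, 33.6 and 28.4 CPM in FFPE brain, heart, kidney and liver, against 110, 36.2, 64.1 and 36.2 CPM in frozen organs, so that brain was highest within each preservation. The 42 Defb genes summed to 228, 178, 172 and 197 CPM in FFPE brain, heart, kidney and liver, against 235, 185, 114 and 187 CPM in frozen organs, and these ranges overlapped.

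To ask how preservation and organ went with 5mC, the deposited log2 values of all genes were fitted in limma with organ and preservation as additive terms. A filter of 1 CPM or more in 2 or more libraries left 25982 genes and 95 members (21 of 28 Defa, 42 of 42 Defb, 14 of 15 Sprr and 18 of 20 Lce genes). The members left out had 1 to 22 reads in all. A gene nearly without reads in a group could pass this filter only through the libraries where it was high. Among others this holds for Defb41 (brain) and for Defa20, Defa33 and Defa42 (frozen). Their p values below are therefore not independent of the filter. Adjusted p values are from limma's moderated tests with Benjamini-Hochberg adjustment over the 25982 genes, and a gene was called at an adjusted p under 0.05. Log2 differences carry their standard error (SE). They rest on log2 of CPM with 0.5 reads added, which understates changes of genes with few reads and makes the fitted value of a gene with no reads in a group depend on that 0.5. Ratios of pooled reads with exact intervals are given beside them. As a check of the labels, 5mC over the genes of hepatocytes was called lower in liver for 9 of 10 genes, over cardiomyocyte genes lower in heart for 4 of 10, and over neuronal genes lower in brain for 5 of 10 and higher for 1. None of 10 proximal tubule genes was called in kidney, where 1 had an unadjusted p under 0.05. Over all tested genes, 7.42% were called lower in liver, 1.97% in heart and 12.8% in brain.

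Between FFPE and frozen tissue, 7 members were called lower in FFPE and none higher: Sprr2a1 and Sprr2a2, which encode envelope precursors of the same subgroup, and the alpha-defensin genes Defa20, Defa21, Defa22, Defa33 and Defa42. Over all tested genes, 0.735% were called lower and 0.62% higher in FFPE. No member was higher at the adjusted threshold, and 17 members had an unadjusted p under 0.05 in either direction. With voom weights the number called lower was 8 and the number called higher 0. Shares of all genes are not given for the unadjusted and voom counts. The median log2 difference was -0.58 for Defa, 0.35 for Defb, -0.37 for Sprr and -0.19 for Lce genes, against 0.03 for all genes, and quantile normalization turned the Lce median to 0.14. With genes at 0 set to 3 reads, the median of the pooled ratio was -1.06 for 26 Defa genes and 0.01 for the Lce genes on the log2 scale.

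The largest read numbers of any member were on Sprr2a2 (Entrez 100303744, chr3:92250647-92257304). It had 55, 25, 15 and 5 reads in FFPE brain, heart, kidney and liver, against 350, 198, 154 and 124 reads in frozen brain, heart, kidney and liver. The groups did not overlap, and within each preservation the order over organs was the same, from brain as the highest to liver as the lowest. The fitted difference was -3.18 ± 0.27 (log2, SE, adjusted p = 4e-06), and pooled signal was 7.33-fold lower in FFPE (95% interval 5.95 to 9.12). Its neighbour Sprr2a1 (Entrez 20755, chr3:92215835-92222491) had 45, 14, 11 and 2 reads in FFPE brain, heart, kidney and liver, against 266, 190, 105 and 81 reads in frozen organs. It followed the same order without overlap. The difference was -3.44 ± 0.34 (log2, SE, adjusted p = 2e-05), and pooled signal was 7.92-fold lower in FFPE (6.20 to 10.2).

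Without this pair the Sprr family differed less by preservation: the other 13 genes summed to 0.504, 0.512, 0.869 and 0.946 times the frozen level in brain, heart, kidney and liver. The nearest annotated copy, Sprr2a3, had 10, 13, 0 and 3 reads in FFPE brain, heart, kidney and liver, against 16, 26, 14 and 10 reads in frozen organs. These groups overlapped, and the difference of -1.84 ± 0.70 (log2, SE) was not called (adjusted p = 0.329). The upstream windows of Sprr2a1 and Sprr2a2 are identical, but the genes themselves were not compared. Reads of one may have been counted on the other, since the sources used here do not say how reads that match several places were treated. Counting the pair once leaves at most 6 loci called lower in FFPE. The windows of Defa21 and Defa22, both called below, are identical too, and that of Defa20 was 98.0% identical to both. Whether reads are shared among these copies is not known either, so the number of separate loci is open.

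For the 5 called alpha-defensin genes the FFPE libraries held 0 to 2 reads each. Defa21 (Entrez 66298, chr8:21025545-21026517) had 0, 0, 2 and 0 reads in FFPE brain, heart, kidney and liver, against 13, 20, 105 and 70 reads in frozen brain, heart, kidney and liver. The groups did not overlap, and frozen kidney and liver were the highest. The difference was -5.49 ± 0.72 (log2, SE, adjusted p = 0.00038), with pooled signal 92.3-fold lower in FFPE (25.2 to 767).

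Defa22 (Entrez 382059, chr8:21162277-21163249) had 2, 0, 0 and 0 reads in FFPE brain, heart, kidney and liver, against 20, 22, 26 and 66 reads in frozen organs. Frozen liver was the highest, and again no FFPE library reached a frozen one. The difference was -5.15 ± 0.77 (log2, SE, adjusted p = 0.00124), with pooled signal 59.5-fold lower in FFPE (16.1 to 496). Defa20 (Entrez 68009, chr8:21509258-21510237) had no read in any FFPE library, against 8, 12, 18 and 8 reads in frozen brain, heart, kidney and liver. Set against 3 reads over the FFPE group, its signal was 13.6-fold lower in FFPE (fitted difference -4.33 ± 0.87, adjusted p = 0.0162). This ratio leaves out the counting error of the frozen reads.

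Defa33 had 1, 0, 0 and 0 reads in FFPE brain, heart, kidney and liver, against 8, 7, 32 and 15 reads in frozen organs, with frozen kidney the highest. The difference was -4.17 ± 0.85 (log2, SE, adjusted p = 0.0174), and pooled signal was 55.0-fold lower (9.52 to 2209). Defa42 had 0, 1, 0 and 0 reads in FFPE brain, heart, kidney and liver, against 6, 11, 13 and 20 reads in frozen organs, without overlap. The difference was -4.01 ± 0.86 (log2, SE, adjusted p = 0.0235), and pooled signal was 44.4-fold lower (7.61 to 1788). Defa43 had no FFPE read, against 11, 10, 4 and 8 reads in frozen brain, heart, kidney and liver. It was not called (adjusted p = 0.0523). Set against 3 reads over the FFPE group, its signal was 9.77-fold lower in FFPE, again without the counting error of the frozen reads.

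**Figure D2:**
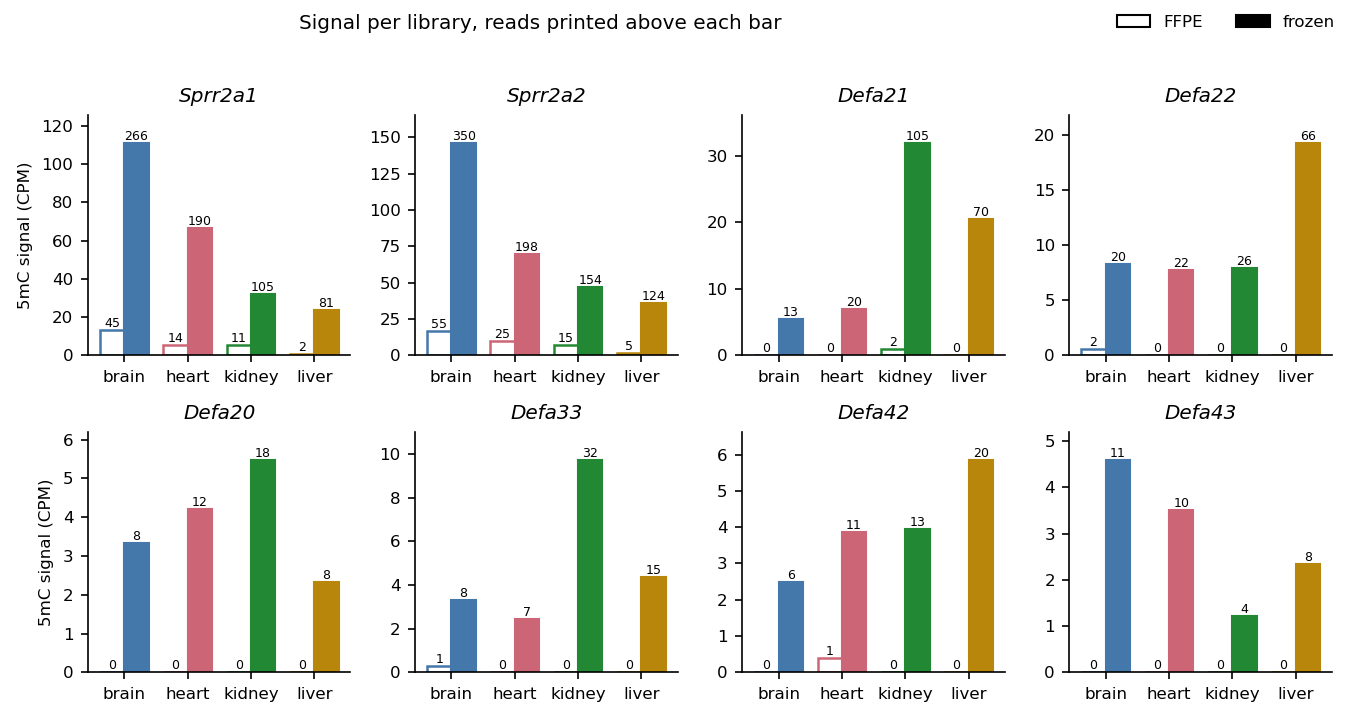
CPM of 8 genes in each library, as open bars for FFPE and filled bars for frozen tissue, grouped by organ, with the reads behind each bar printed above it. For Sprr2a1 and Sprr2a2 the FFPE bars hold 2 to 55 reads and the frozen bars 81 to 350, and for the 6 Defa genes the FFPE bars hold 0 to 2 reads and the frozen bars 4 to 105.

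The 5 called Defa genes summed to 0.896, 0.397, 0.945 and 0 CPM in FFPE brain, heart, kidney and liver, against 22.9, 25.3, 58.9 and 52.3 CPM in frozen organs, a description of genes chosen by this same difference. The other 23 Defa genes summed to 26.6, 26.2, 25.0 and 22.7 CPM in FFPE organs, against 29.2, 28.8, 33.1 and 26.0 CPM in frozen organs. The near-equal sums of these 23 genes hide differences in both directions, shown here for genes chosen after their values were seen. Defa32, 98.4% identical to Defa20 over the upstream window, had 5, 0, 0 and 0 reads in FFPE brain, heart, kidney and liver, against 6, 1, 33 and 18 reads in frozen organs, so that FFPE brain exceeded frozen heart and the groups overlapped, and it was not called (-3.10 ± 0.98 on the log2 scale, adjusted p = 0.194). Defa35 had 6 FFPE and 30 frozen reads in all and was not called either (adjusted p = 0.478), while Defa29 and Defa38, given below, had more FFPE than frozen reads. The called genes do not lie side by side: between Defa21 and Defa22 there are 5 Defa genes that were not called.

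Copies with near-identical upstream windows did not always share the pattern, and the following genes were chosen after their values were seen. Defa2, whose upstream window is the same as that of Defa20, had 0 FFPE reads and 1 frozen read in all, too few to show a pattern. The other pairs with the same window ran alike: Defa21 with Defa22, and Defa42 with Defa43, in the reads given above. Defa23 and Defa31 had 15 and 20 FFPE reads, against 15 and 14 frozen reads in all. Defa36 and Defa37, not tested, had 3 and 1 FFPE reads, against 9 and 4 frozen reads. Defa38, 97.2% identical to Defa42 over the window, had 7, 4, 10 and 5 reads in FFPE brain, heart, kidney and liver, against 2, 5, 0 and 1 reads in frozen organs, with overlap. Defa29, for which no window was given, ran the other way. It had 17, 20, 10 and 21 reads in FFPE brain, heart, kidney and liver, against 6, 11, 2 and 5 reads in frozen organs. Its pooled signal was 3.19 times the frozen level (1.98 to 5.32), but it was not called (1.75 ± 0.60 on the log2 scale, adjusted p = 0.253). Across the 105 members, 9 lay in all 4 FFPE libraries below all 4 frozen ones, and 1 above, against 1.79% and 1.25% of all 27179 genes.

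**Figure D3:**
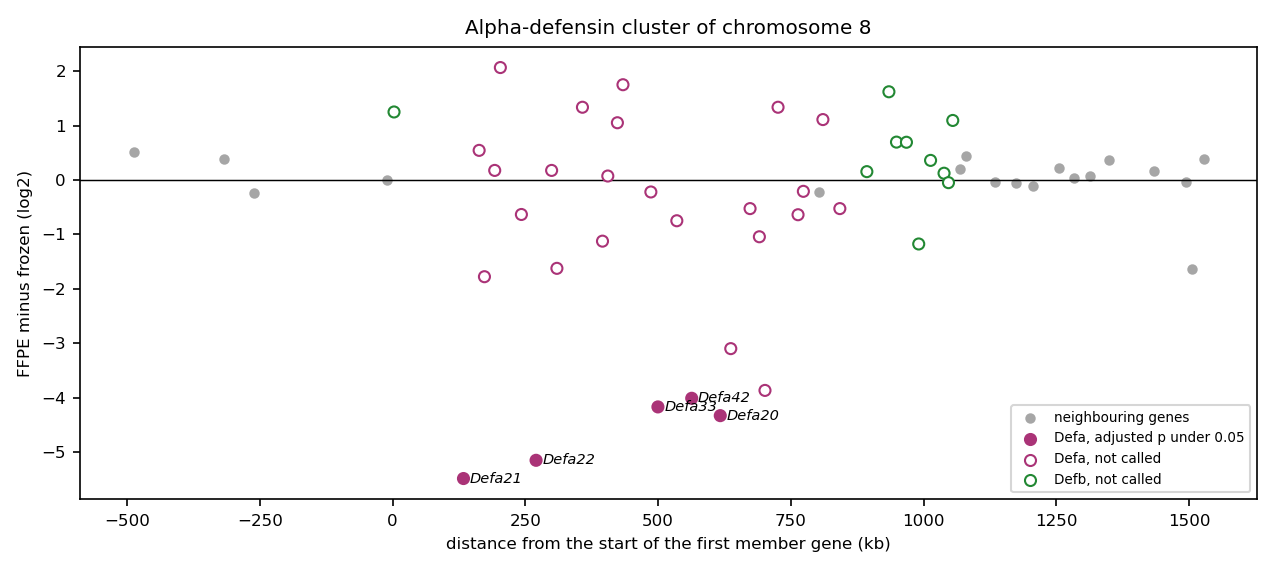
FFPE minus frozen log2 difference (vertical axis) of the Defa and Defb genes of the distal chromosome 8 cluster and of other genes within 500 kb, against distance in kb from the start of the first member. The called genes Defa21, Defa22, Defa20, Defa33 and Defa42 lie between -5.49 and -4.01, and the uncalled Defa43 and Defa32 follow at -3.87 and -3.10, while the other members of the cluster lie between -1.78 and 2.07.

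Genes with the same presence in frozen and absence in FFPE tissue were counted over the whole table, by a rule chosen after the values were seen: at most 3 FFPE reads in all and over 3 reads in each frozen library. It held for 43 of 27179 genes (0.158%), of which 6 were alpha-defensins (Defa20, Defa21, Defa22, Defa33, Defa42 and Defa43). Of the others, 15 were vomeronasal type 1 receptor genes, out of 232 in the table, and 2 were Skint genes, which encode immunoglobulin-like proteins of skin and thymus. H60b and Raet1e, which encode ligands of the natural killer cell receptor NKG2D, were also among them, and 6 of the 43 had no symbol. The 18 other genes within 500 kb of the distal chromosome 8 cluster had a median difference of 0.05 (log2), and none of the 17 tested was called for preservation, with 3 at an unadjusted p under 0.05. Leaving out FFPE brain, FFPE heart, FFPE liver, frozen brain, frozen heart or frozen liver each lowered the 7 calls to 4, and Sprr2a1, Sprr2a2, Defa21 and Defa22 stayed called in each of the 8 fits with a library left out. Without the variance trend 2 members were called, and with a stricter filter 4.

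Between organs, 15 members were called by the F test over the 4 organs, 7 of them Lce, 5 Sprr and 3 Defb genes, where 25.1% of all tested genes were called. No Defa gene was among them, and 0 of 21 tested Defa genes had an unadjusted p under 0.05 in the brain or liver comparison. Each organ was also set against the mean of the other 3. These contrasts share libraries, so the brain and liver values below are not independent of each other. In whole-organ DNA, methylation in more cells and methylation of a different cell mixture cannot be told apart.

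In brain, 10 members were called higher and none lower: Lce1a1, Lce1a2, Lce1b, Lce1c, Lce1e and Lce1h, Sprr2a1, Sprr2a2 and Sprr2k, and Defb41. Over all tested genes 8.61% were called higher and 12.8% lower in brain. Of the 95 tested members, 26 had an unadjusted p under 0.05, and voom weights gave 24 called higher. Shares of all genes are not given for these 2 counts, so they are not read as particular to the members. The median log2 difference was 2.48 for Lce, 1.86 for Sprr, 0.91 for Defb and 0.25 for Defa genes, against 0.11 for all genes. Quantile normalization lowered these to 1.24, 0.77 and 0.02 and turned the Defa median to -1.16, while it moved the median of all genes to -0.08. With genes at 0 set to 3 reads, the median of the pooled ratio was 2.50 for Lce genes and -0.35 for 26 Defa genes (log2). Thinly covered genes as a class lay higher in brain: the 6521 genes with a mean of at most 5 CPM had a median difference of 0.88, and 5.63% of the 5324 tested among them were called higher.

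Among the Lce genes, whose products are late components of the envelope, 11 of 20 had both brain libraries above the 6 libraries of other organs, as did 21 of the 105 members and 16.1% of all genes. No member had both brain libraries below the other 6, against 11.2% of all genes. Lce1h (Entrez 67718, chr3:92763215-92765065) had 24 reads in FFPE brain and 22 in frozen brain, against 2, 2 and 0 reads in FFPE heart, kidney and liver and 4, 3 and 1 reads in frozen heart, kidney and liver. Both brain libraries lay far above the other 6. The difference was 3.49 ± 0.90 (log2, SE, adjusted p = 0.0127), and pooled signal was 11.2 times that of the other organs (5.86 to 23.3). Lce1c had 18 and 17 reads in FFPE and frozen brain, against 2, 4 and 0 reads in FFPE heart, kidney and liver and 2, 9 and 0 reads in frozen heart, kidney and liver. Again the brain libraries were the highest (3.13 ± 0.91 on the log2 scale, adjusted p = 0.0238, ratio 6.03, 3.29 to 11.5). The other 4 called Lce1 genes had differences of 3.25 (Lce1b), 3.51 (Lce1a1), 3.54 (Lce1e) and 3.65 (Lce1a2) on the log2 scale, from 5 to 20 reads in each brain library. For Lce1a1 the groups overlapped, since frozen heart had 9 reads and FFPE brain 8.

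One Lce gene stood apart from the rest. Lce1m (chr3:93017807-93019061), at the far end of the array and the most strongly covered of the family, had 43 reads in FFPE brain and 32 in frozen brain, against 19, 31 and 50 reads in FFPE heart, kidney and liver and 23, 74 and 91 reads in frozen heart, kidney and liver. Both liver libraries were the highest in CPM within their preservation and both heart libraries the lowest. It was called by the F test over organs (adjusted p = 0.0484), but not in any single organ comparison. The remaining 19 Lce genes together had 3.94 times the signal in brain that the other 6 libraries had on average.

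Among the Sprr genes, Sprr2k had 25 and 13 reads in FFPE and frozen brain, against 2, 0 and 0 reads in FFPE heart, kidney and liver and 3, 0 and 0 reads in frozen heart, kidney and liver. The 5 reads outside brain all fell in the heart libraries. The difference was 4.33 ± 1.06 (log2, SE, adjusted p = 0.0096), with a pooled ratio of 22.3 (8.75 to 72.5). Sprr2a2 and Sprr2a1, whose reads are given above, were higher in brain by 1.60 ± 0.31 and 1.86 ± 0.39 (log2, SE, adjusted p = 0.00244 and 0.00428). For this pair the groups overlapped across preservations, because frozen heart, kidney and liver exceeded FFPE brain, while within each preservation brain was the highest. For Sprr2a1 the brain difference was 2.13 within FFPE and 1.58 within frozen tissue (log2).

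Of the beta-defensins only Defb41 was called higher in brain. It had 16 and 11 reads in FFPE and frozen brain, against 1, 0 and 0 reads in FFPE heart, kidney and liver and 1, 0 and 0 reads in frozen heart, kidney and liver. All but 2 of its 29 reads thus fell in brain (4.22 ± 1.12 on the log2 scale, adjusted p = 0.0145, ratio 39.6, 9.94 to 343). It passed the filter through its brain libraries alone, so this p value is not independent of the filter. Its neighbour Defb18 had 5 and 7 reads in FFPE and frozen brain, against 3, 0 and 0 reads in FFPE heart, kidney and liver and no read in frozen heart, kidney or liver, and was not called.

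The brain counts depended on single libraries. Without FFPE brain 1 member was called higher and without frozen brain 0, 5 without FFPE heart or frozen heart, 24 without FFPE kidney and 17 without frozen kidney. A stricter filter gave 2 and no variance trend gave 0. Shares of all genes under these alternatives are not given here.

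In liver, 9 members were called lower and 2 higher, where 7.42% and 11.8% of all tested genes were. Without a test, 5 members had both liver libraries below the other 6 and 4 had both above, against 9.61% and 11.2% of all genes. The 9 were Lce1b, Lce1c, Lce1e, Lce1g, Lce1h and Lce6a, Sprr2a1, Sprr2a2 and Sprr2d, all in the chromosome 3 cluster. Both higher genes were beta-defensins, Defb23 and Defb47. The median log2 difference was -1.85 for Lce, -0.91 for Sprr, -0.40 for Defb and -0.14 for Defa genes, against -0.13 for all genes. Under quantile normalization these were -0.72, -0.22, 0.24 and 0.71, so that the Defb and Defa medians changed sign, and centring libraries on their medians also turned the Defa median, to 0.05. Over the 6521 thinly covered genes the median was -0.53, and 3.87% of those tested were called lower.

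Lce6a had 2 reads in FFPE liver and 0 in frozen liver, against 28, 10 and 9 reads in FFPE brain, heart and kidney and 16, 8 and 22 reads in frozen brain, heart and kidney. Both liver libraries were below the other 6 (-3.83 ± 0.80 on the log2 scale, adjusted p = 0.00335, pooled signal 17.1-fold lower, 4.59 to 143). Lce1g had 0 and 3 reads in FFPE and frozen liver, against 34, 8 and 6 reads in FFPE brain, heart and kidney and 16, 6 and 14 reads in frozen brain, heart and kidney. It too was lowest in liver (-3.33 ± 0.82, adjusted p = 0.00979, 10.3-fold lower, 3.40 to 50.8).

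Lce1c, Lce1e, Lce1b and Sprr2d had no read in either liver library. Set against 3 reads over the liver group, their signal in liver was 6.36-fold, 4.77-fold, 4.53-fold and 6.12-fold lower. These values leave out the counting error of the other organs. Sprr2d had 8, 2 and 5 reads in FFPE brain, heart and kidney and 20, 11 and 4 reads in frozen brain, heart and kidney. Lce1h, with 1 liver read, was 20.9-fold lower (3.61 to 840). Sprr2a2 and Sprr2a1 were lower in liver by a log2 difference of -1.73 ± 0.31 and -2.18 ± 0.39 (SE, adjusted p = 0.00125 and 0.00131), with overlap across preservations.

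Defb23, on chromosome 2, had 79 reads in FFPE liver and 86 in frozen liver, against 30, 20 and 33 reads in FFPE brain, heart and kidney and 16, 24 and 9 reads in frozen brain, heart and kidney. Liver was highest without overlap (1.85 ± 0.49 on the log2 scale, adjusted p = 0.0143, ratio 3.41, 2.69 to 4.32). Defb47, on chromosome 14, had 93 and 61 reads in FFPE and frozen liver, against 43, 23 and 31 reads in FFPE brain, heart and kidney and 23, 19 and 29 reads in frozen brain, heart and kidney. Its liver libraries were also the highest in CPM (1.32 ± 0.36, adjusted p = 0.0179, ratio 2.50, 1.99 to 3.13). Without FFPE liver or frozen liver 3 members were called lower, against 14 without frozen kidney. Both higher calls were lost without FFPE liver, without frozen liver or without FFPE heart, and no variance trend left 0 calls in either direction.

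In heart and kidney no member was called in either direction, where 0.162% and 1.97% of all tested genes were called higher and lower in heart, and 0.897% and 0.566% in kidney. Unadjusted p values under 0.05 were found for 6 members in heart and 9 in kidney. Shares of all genes at that level, and under the alternatives that follow, are not given here. With voom weights 0 members were called in heart and 1 in kidney, higher. Array quality weights gave 1 called lower in heart. Without FFPE kidney, the shallowest library, 12 members were called lower in kidney and 1 lower in heart. Sprr genes had a median difference of -1.06 in kidney and 0.82 in heart, against -0.02 and 0.07 for all genes.

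Several well-known members were not called in any of these comparisons. Defb1, a beta-defensin of the distal kidney tubule, had 26 and 19 reads in FFPE and frozen brain, 6 and 5 in heart, 10 and 9 in kidney and 4 and 8 in liver. Its brain libraries were the highest (1.63 ± 0.67 on the log2 scale, adjusted p = 0.0916). In kidney, the organ known for its expression, the difference was 0.19 ± 0.67. Defb4 had 19, 16, 7 and 7 reads in FFPE brain, heart, kidney and liver, against 21, 16, 40 and 33 reads in frozen organs (FFPE minus frozen -1.01 ± 0.49, adjusted p = 0.483). Defb14 had 11 to 35 reads in FFPE and 11 to 28 in frozen libraries, and Defb3 had 1 to 8 in FFPE and 0 to 3 in frozen libraries.

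Sprr1a, an envelope precursor also known as an axon regeneration gene, had 12 and 13 reads in FFPE and frozen brain, against 2, 3 and 1 reads in FFPE heart, kidney and liver and 8, 0 and 0 reads in frozen heart, kidney and liver (2.87 ± 1.11, adjusted p = 0.0759). Sprr1b had 12 and 4 reads in FFPE and frozen brain, and at most 8 elsewhere (1.81 ± 1.02, adjusted p = 0.210). Lce3a had 11 reads in each brain library and 1 to 18 in the others, with a brain difference of 0.86 ± 0.91. Defb25, the beta-defensin with the highest signal per kb, was called by the F test (adjusted p = 0.0449) and in no single comparison: its kidney libraries had 4 and 7 reads in FFPE and frozen tissue, against 16 to 38 reads in the other 6.

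Most genes around the chromosome 3 array went the same way as the array in brain and liver, but their summed signal did not. Of the 18 other genes inside it or within 500 kb, 6 were called higher and 1 lower in brain, with a median difference of 1.12, and 5 were called lower and 1 higher in liver, with a median of -0.97. The array itself holds 35 genes, of which 32 were tested. Of these, 9 were called higher in brain and 9 lower in liver. The medians over the 35 genes were 2.34 in brain and -1.57 in liver. Over all tested genes, 8.61% were called higher and 12.8% lower in brain, and 11.8% higher and 7.42% lower in liver. Summed over the 18 other genes, signal was 0.842 times the mean of the other 6 libraries in brain and 1.24 times in liver. For the array these ratios were 2.73 and 0.429. Of the 18 genes, filaggrin (Flg) held the most reads in every library. Involucrin (Ivl), the main early envelope scaffold, had 59 and 97 reads in FFPE and frozen brain, against 23, 12 and 4 reads in FFPE heart, kidney and liver and 23, 28 and 13 reads in frozen heart, kidney and liver (2.30 ± 0.48, adjusted p = 0.00382). Its liver libraries were the lowest within each preservation (-2.20 ± 0.48, adjusted p = 0.00459). Repetin (Rptn), cornulin (Crnn) and trichohyalin (Tchh) were likewise called higher in brain and lower in liver. Filaggrin (Flg), the filament-aggregating protein of the granular layer, was called in the opposite direction, lower in brain (-0.69 ± 0.15, adjusted p = 0.00395) and higher in liver (0.71 ± 0.15, adjusted p = 0.00299).

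**Figure D4:**
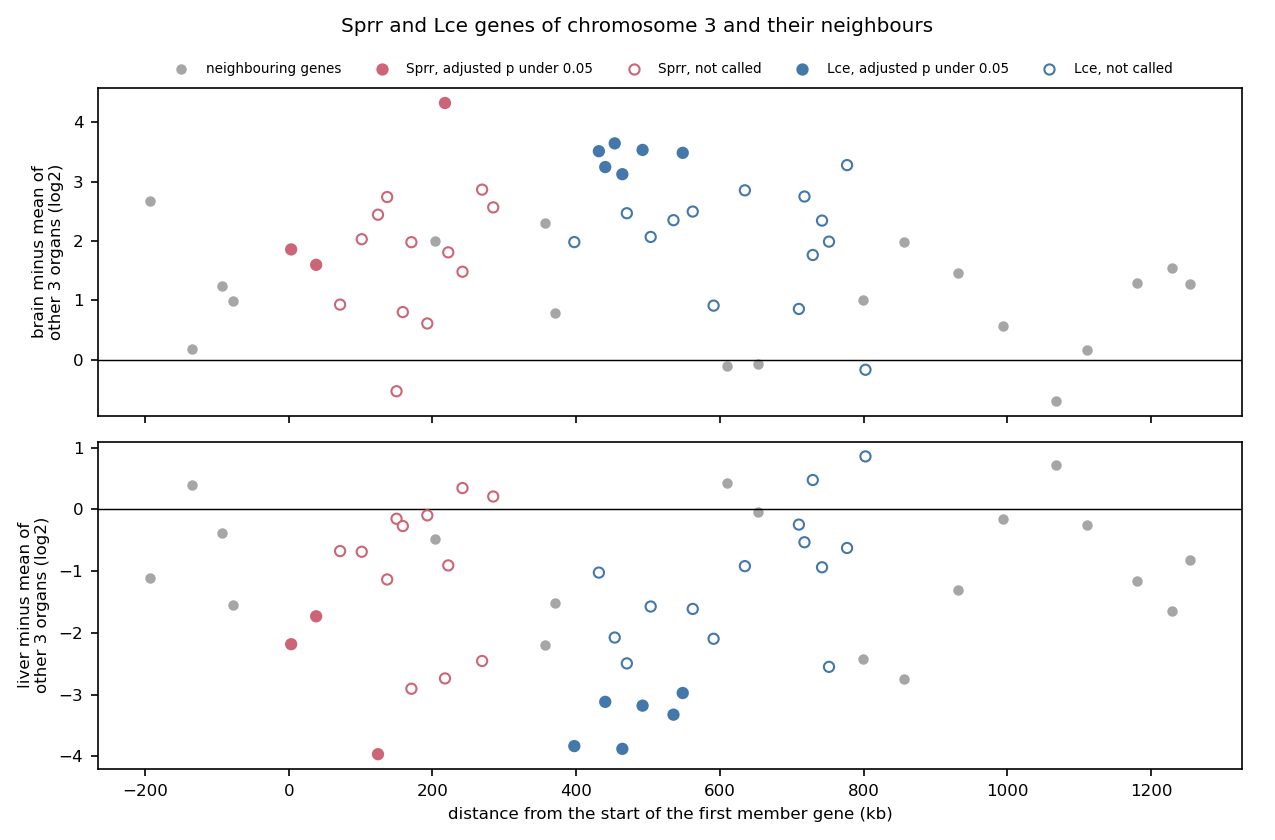
Log2 difference of brain (upper panel) and liver (lower panel) from the mean of the other 3 organs, for Sprr, Lce and neighbouring genes of chromosome 3, against distance in kb from the start of the first member. Filled Sprr and Lce points passed the adjusted threshold and open ones did not. Neighbouring genes are filled grey points whether called or not. Most genes lie above 0 in brain and below 0 in liver, and Lce1m, the last member on the right, lies at -0.16 in brain and 0.86 in liver.

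The flanks of the other clusters differed from one another in brain, where 8.61% of all tested genes were called higher and 12.8% lower. Around the chromosome 2 Defb cluster, 3 of 30 genes were called higher and 5 lower in brain (median 0.06), around the chromosome 14 cluster 1 and 2 of 15 (median 0.04), around the proximal chromosome 8 cluster 0 and 1 of 9 (median 0.43) and around the distal one 1 and 2 of 18 (median 0.27). The 3 genes beside Defb41 and Defb18 on chromosome 1 went the way of their cluster: all 3 had both brain libraries above the other 6. Their median brain difference was 1.74, and 1 of them, Crispld1, was called higher (1.21 ± 0.26, adjusted p = 0.00441). Another of the 3, Defb44-ps, is a beta-defensin pseudogene left out of the members by name, with 5 and 4 reads in FFPE and frozen brain.

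Genes that work with the members were read from lists. For scale, over all tested genes 8.61% were called higher and 12.8% lower in brain, and 11.8% higher and 7.42% lower in liver. In heart 1.97% were called lower, and in kidney 0.897% were called higher. Of 30 other measured genes of the epidermal differentiation complex, many of which are the neighbours above, 7 were called higher and 1 lower in brain, and 1 higher and 6 lower in liver. Of 20 envelope assembly genes elsewhere in the genome, 4 were called higher and 2 lower in brain, and 3 higher and 2 lower in liver. In heart 2 genes of the first list and 1 of the second were called lower, and in kidney 1 of each was called higher. Among these, envoplakin (Evpl), a plakin of the early envelope, was lower in brain (-0.62 ± 0.13) and higher in liver (0.69 ± 0.13), and keratin 10 (Krt10) likewise (-0.79 ± 0.18 and 0.92 ± 0.18). Of 22 other antimicrobial peptide and protein genes, 2 were called higher and 0 lower in brain, 1 higher and 2 lower in liver, and 1 lower in heart. The median of this list was 0.91 in brain and -1.06 in liver.

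One of the 22, the intelectin gene Itln1, a lectin of Paneth and goblet cells, was called higher in FFPE (2.07 ± 0.28, adjusted p = 0.000428) and was the single gene called for preservation in any of the lists. The list of 6 Paneth cell genes holds it too. Of 5 genes for defensin processing and sensing, Ccr2, a chemokine receptor that beta-defensins can bind, was called higher in brain (2.75 ± 0.55, adjusted p = 0.00306). Tlr4, the lipopolysaccharide receptor chain, was called higher in brain and lower in liver (-1.39 ± 0.40, adjusted p = 0.0239). The Paneth cell list had 2 genes called higher and 1 lower in liver, and 2 lower in heart. Of 8 keratinocyte genes outside the complex, 2 were called higher in brain (Krt5 and Perp) and 1 lower in liver (Krt5).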

How the data were processed

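Per the submitters' processing notes, Bowtie2, featureCounts and limma were used, with the mouse build mm10. The sources used here give no versions, counted feature, strandedness or treatment of reads that match several places. The deposited values are log2 CPM with 0.5 reads added, 1 column per organ and preservation. From them whole reads were recovered (tolerance 1e-04, with 0 values left over). They gave 2164158 to 3699218 reads on genes per library and served for depth, ratios and floors.

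The fit was made with limma 3.58.1 in R 4.3.3 (variance trend, 5 coefficients, 3 residual and 13.1 prior degrees of freedom). It has no term for organ by preservation, so such differences enter its error. Tested on simulated data with 100 genes changed per fold size, all at or above the median signal, it recovered 66% of genes changed 2-fold and 100% of those changed 4-fold in the brain comparison, and 85% and 100% in FFPE against frozen, with 19 and 6 false calls among 25891 genes. The simulated counts had a fixed spread that was not estimated from these data, and no differences besides the planted ones. These figures do not describe recovery in data that vary more, nor for thinly covered genes such as most members. Ratios pool the reads of a group and carry exact conditional 95% intervals (scipy 1.17.1). RefSeq of GRCm38.p6 placed 25275 genes (93.0%) by Entrez ID. Genome and protein sequences were not used here.

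Named genes were well-known members, up to 4 called members per family and comparison with the smallest p, the highest and lowest per kb, and up to 2 called genes per list. Members and lists were chosen with earlier results of these data known. Normalization, filter, pseudocount, variance model and each library in turn were varied. Shares of all genes called are given for the fit as reported only, so member counts under the alternatives lack that scale.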

Additional observations from a re-analysis of the deposited data

Results flagged for a closer look

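The summed signal of the 42 Defb genes was higher in FFPE than in frozen tissue in kidney and liver, and lower in brain and heart, but past counting error in kidney alone. The FFPE sum was 1.50 times the frozen sum in kidney (95% interval 1.30 to 1.74, counting error only) and 1.06 times in liver (0.938 to 1.19), against 0.970 times in brain (0.868 to 1.083) and 0.966 times in heart (0.849 to 1.10). The median difference of the 42 genes was above 0 in all 4 organs, at 0.04 in brain, 0.13 in heart, 0.90 in kidney and 0.31 in liver (FFPE minus frozen, log2). The difference between organs was not tested, since the deposited table has 1 column for each organ and preservation. Frozen kidney, which gave the lowest Defb sum, also had 14 of 42 Defb genes at 0 and the widest spread of log2 signal of the 8 libraries (SD 2.91), and the part of either in this difference was not tested.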

How the results depend on the processing

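No paired analysis was possible because the columns carry no replicate number to pair on, while the organ term of the fit already compares FFPE with frozen tissue within organs. Of 622 values of named members under alternatives, 431 stayed on their side of the threshold, 191 were no longer called, and 0 changed direction. Of 220 family medians 167 moved by less than the spread between libraries and 53 by more. The members called in the fit as reported were 15 by the organ F test, 10 higher in brain, 9 lower and 2 higher in liver, 7 lower in FFPE and 0 otherwise. A filter of at least 2 CPM in at least 4 libraries gave 9 by the F test, 2 higher in brain and 4 lower in FFPE, and no filter gave 16 higher in brain. Without the variance trend the counts were 0 by the F test, 0 higher in brain, 0 higher and 0 lower in liver and 2 lower in FFPE. Quantile normalization gave 9 by the F test and 2 lower in brain. Array quality weights gave 22 higher in brain and 1 lower in heart. Voom weights, chosen after seeing the data, gave 24 higher in brain and 1 higher in kidney. Leaving out the pair Sprr2a1 and Sprr2a2, also chosen after seeing the data, left 5 lower in FFPE. With each library left out in turn, counts ran from 2 to 28 by the F test, 0 to 24 higher and 0 to 1 lower in brain, 0 to 1 lower in heart, 0 to 12 lower in kidney, 0 to 3 higher and 3 to 14 lower in liver, and 4 to 8 lower in FFPE. Where this leaves 1 library of an organ, that library is assumed to vary like the others. The fewest F calls came without frozen brain (2) and the most without FFPE kidney (28). Defa21 kept its call in all 16 alternatives, and Defa22, Sprr2a1 and Sprr2a2 lost theirs only without the variance trend. The causes were not tested, and shares of all genes under these alternatives are not given here. Depth limits most members: a median Defa gene had 1 to 5 reads per library.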
